A study of Mus musculus with 8 samples.

Results

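The 33 genes described here encode chaperones, folding enzymes, degradation factors and transcription regulators of the protein folding stress responses. They were taken by name from the deposited tables through their Ensembl identifiers, and all 33 were found among the 53342 identifiers of each table. They fall into 14 chaperones and folding enzymes of the endoplasmic reticulum (ER), 4 genes of ER-associated degradation, 4 stress transcription factors and regulators, 9 cytosolic chaperones and 2 mitochondrial chaperonins. A filter on low counts kept 5256 genes of the whole table and 28 of the 33: all 14 ER chaperones and folding enzymes, 3 of 4 degradation genes, 3 of 4 regulators, 6 of 9 cytosolic chaperones and both mitochondrial chaperonins.

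Macrophages had been sorted from infarcted hearts of wild type C57BL/6 mice, 8 weeks old, 3 days after myocardial infarction (MI). The 4 groups were Ly6Clo macrophages with interleukin 21 (IL-21, 100 ng/mL), Ly6Clo macrophages without IL-21, Ly6Chi macrophages with IL-21 and Ly6Chi macrophages without IL-21. All groups were kept for 24 hours in the same serum-containing medium with 2-mercaptoethanol, a reducing agent, and all libraries were made after that culture. Each group had 2 libraries, numbered 1 and 2 in the sample titles, and the labels state neither what a number marks nor whether animals were pooled. Where nothing says that replicates came from separate mice or cultures, p-values measure only the spread between these libraries, which may be technical.

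Deposited totals ranged from 224329 to 483593 counts per library. Libraries numbered 2 were the deeper ones in Ly6Clo macrophages (444670 and 483593 counts, against 269064 and 257385 in those numbered 1) and not in Ly6Chi macrophages (224329 and 284174, against 287131 and 261205). At these depths 3 counts were worth 6.58 to 14.9 CPM (counts scaled to a common library size). The sort was visible in Ly6c2, the gene of the sorting antigen, which was lower in Ly6Clo than in Ly6Chi macrophages by a log2 fold change of -3.19 averaged over stimulation (standard error, SE, 0.30, edgeR adjusted p = 0.000837). Among 11 macrophage markers 10 were tested, while Itgam was listed at 0 in all 8 libraries. Summed T cell markers reached 19.9 CPM at most, with Cd3g and Cd8a at 0. Summed neutrophil markers were higher, at 641 to 2338 CPM.

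As background, proteins that enter the ER are folded by chaperones such as BiP and GRP94, by the lectins calnexin and calreticulin and by protein disulfide isomerases. When unfolded proteins build up, the sensors IRE1, ATF6 and PERK start the unfolded protein response: IRE1 and ATF6 raise ER chaperone transcription through XBP1 and cleaved ATF6, and PERK slows translation while favouring that of ATF4, which induces Ddit3 and amino acid metabolism genes. ATF4 also answers other stresses that phosphorylate eIF2alpha. The cytosol has its own programme, in which heat shock factor 1 raises HSP70 and HSP90 family genes. Macrophages secrete many proteins that fold in the ER.

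Measured by level, this was mainly an ER chaperone set. The 14 ER chaperones and folding enzymes made up 60.2% of the summed mean CPM of the 33 genes, the cytosolic chaperones 21.9%, the regulators 8.02%, the degradation genes 5.52% and the mitochondrial chaperonins 4.36%. The libraries were made with a 3' end kit, which gives about a single read per captured transcript whatever its length, so CPM of different genes are set side by side here without a length correction; capture can still differ between 3' ends.

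Hspa5, which encodes the ER HSP70 chaperone BiP, was the most abundant of the 33 at 1281 CPM on average over the 8 libraries, from 877 to 1599. Pdia3, a disulfide isomerase that works with calnexin and calreticulin, followed at 1022 CPM (816 to 1154), and Hsp90ab1, the constitutive cytosolic HSP90, at 1007 CPM (869.5 to 1204). Within libraries Hspa5 lay above Pdia3 in 8 of 8 and above Hsp90ab1 in 7 of 8, while Pdia3 lay above Hsp90ab1 in 4 of 8, so the order of the second and the third is not separated by the spread between libraries. Calr, encoding calreticulin, averaged 580.5 CPM, the disulfide isomerase gene Pdia6 513 CPM, Atf4 501 CPM, Hsp90b1, encoding GRP94, 499 CPM, and Canx, encoding calnexin, 368 CPM. The lowest means among the tested genes belonged to Hyou1, an ER HSP70 relative and exchange factor (14.8 to 52.7 CPM), and the disulfide isomerase gene Pdia4 (20.8 to 45.2 CPM).

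Some inducible heat shock genes were close to the detection limit. Hspa1a and Hspa1b, the stress-inducible HSP70 pair, held 19.9 and 5.5 counts summed over all 8 libraries, and since the pair is nearly identical the split between them is uncertain. Hsph1, an HSP110 exchange factor, had 56 counts in all, Herpud1, an ER degradation factor, 46, and Trib3, a pseudokinase induced by ATF4 and CHOP, 8.9. These 5 genes were not tested. The constitutive Hspa8, in contrast, held 362 counts, with 105 to 234 CPM.

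**Figure D1:**
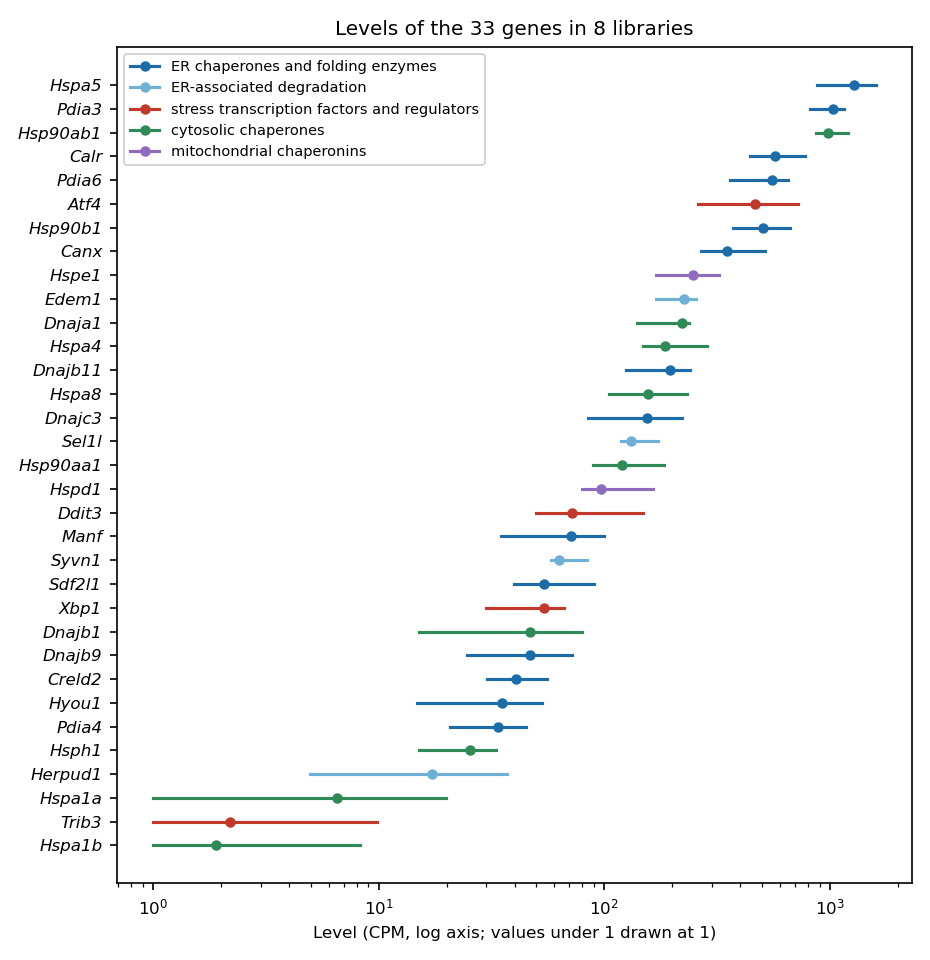
Level of each of the 33 genes in CPM on a log axis, with the median of 8 libraries as a point and the lowest to highest library as a line, coloured by role; values under 1 CPM are drawn at 1. Hspa5, Pdia3 and Hsp90ab1 stand at the top with means of 1281, 1022 and 1007 CPM, and Hspa1a, Trib3 and Hspa1b at the bottom.

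The ER chaperone genes are known for a shared promoter element, the ER stress response element (ERSE), which NF-Y and ATF6 or XBP1 bind. Promoter windows from RefSeq (build GRCm38.p6, 250 bases before to 50 bases after each start) were held for 28 of the 33 genes; Manf, Hyou1, Hsp90aa1, Hsp90ab1 and Hspa8 had none. ERSE was searched on both strands as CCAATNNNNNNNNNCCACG, which contains the shorter CCAAT box. It was found for 37 of 27025 genes with a window (0.137%), and for 8 of the 28 genes described here. These were 7 of the 12 ER chaperones and folding enzymes with a window (Hspa5, Hsp90b1, Calr, Canx, Pdia6, Dnajc3 and Creld2) and the ubiquitin ligase gene Syvn1; none of the 4 regulators, 6 cytosolic chaperones or 2 mitochondrial chaperonins with a window held a match. The matches are shown because the ER genes that passed the test between replicate numbers all held one. The ERSE match is in capitals, each line reads along the strand on which it matched, and Hsp90b1 held 2.
Hspa5, chr2:34772020-34772048, plus strand: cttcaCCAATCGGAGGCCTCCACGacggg
Hsp90b1 distal, chr10:86705618-86705676, minus strand: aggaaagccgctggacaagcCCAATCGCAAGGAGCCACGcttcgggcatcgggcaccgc
Hsp90b1 proximal, chr10:86705513-86705571, plus strand: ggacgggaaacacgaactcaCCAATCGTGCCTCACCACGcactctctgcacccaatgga
Calr, chr8:84847055-84847113, plus strand: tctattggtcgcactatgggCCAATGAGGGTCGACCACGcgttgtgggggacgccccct
Canx, chr11:50325780-50325838, minus strand: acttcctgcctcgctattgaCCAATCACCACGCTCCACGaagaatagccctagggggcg
Pdia6, chr12:17266471-17266529, plus strand: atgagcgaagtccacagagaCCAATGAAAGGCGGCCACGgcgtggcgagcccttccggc
Dnajc3, chr14:118937807-118937865, plus strand: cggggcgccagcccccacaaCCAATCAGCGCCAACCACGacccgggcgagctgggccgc
Creld2, chr15:88819500-88819558, minus strand: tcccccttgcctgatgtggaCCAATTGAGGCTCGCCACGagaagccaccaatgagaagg
Syvn1, chr19:6046512-6046570, plus strand: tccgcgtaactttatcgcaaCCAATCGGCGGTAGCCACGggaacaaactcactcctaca

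All 9 matches lay before the RefSeq start, the nearest edge at 26 bases (Syvn1) and the farthest edge at 212 bases (the distal Hsp90b1 match). In GENCODE M21 the Hspa5 match lies inside an annotated first exon that begins at chr2:34771970, so a shorter stretch is shown for it. The letters differ between genes in the 9 bases of the spacer, and a match is a description of the sequence, not evidence of a bound site. The searches took exact letters inside these windows only, so a gene without a match may hold a variant or a more distant element.

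Other elements were rarer among the 28 genes. The related ERSE-II, searched as ATTGGNCCACG, was found for Dnajb11 and Herpud1 (0.0444% of all genes with a window), and TGACGTGG, a core of the unfolded protein response element, for none (0.714%). The ATF4 element searched as TGATGNAA was found for Herpud1 and Trib3 (4.51% of genes). The heat shock element, searched as GAANNTTCNNGAA, was found for Hsph1 and for Hspd1 and Hspe1 (0.662% of genes). Hspd1 and Hspe1 lie head to head on chromosome 1 and share a stretch with 2 overlapping matches, one on each strand. It is shown because it belongs to both genes, with the bases of both matches in capitals, and in GENCODE M21 it lies inside an annotated exon of Hspd1.
Hspd1 and Hspe1, chr1:55088054-55088081, plus strand: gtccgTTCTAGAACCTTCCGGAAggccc

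Set against libraries numbered 1 with the group taken into account, libraries numbered 2 had less RNA for ER chaperones and more for the stress regulators Atf4 and Ddit3. Of the 28 genes tested, 2 were higher and 6 lower (edgeR quasi-likelihood test, adjusted p under 0.05 over 5256 genes). Over all genes tested 431 of 5256 were called (8.2%), 242 higher (4.6%) and 189 lower (3.6%). The median log2 fold change of the 28 was -0.25, against -0.0037 over all genes. All 6 genes that fell were ER chaperones or folding enzymes, out of 14; 12 of these 14 lay below 0, with a median of -0.52. The 6 cytosolic chaperones tested had a median of 0.0036 with 0 called, and neither mitochondrial chaperonin was called (median -0.21).

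**Figure D2:**
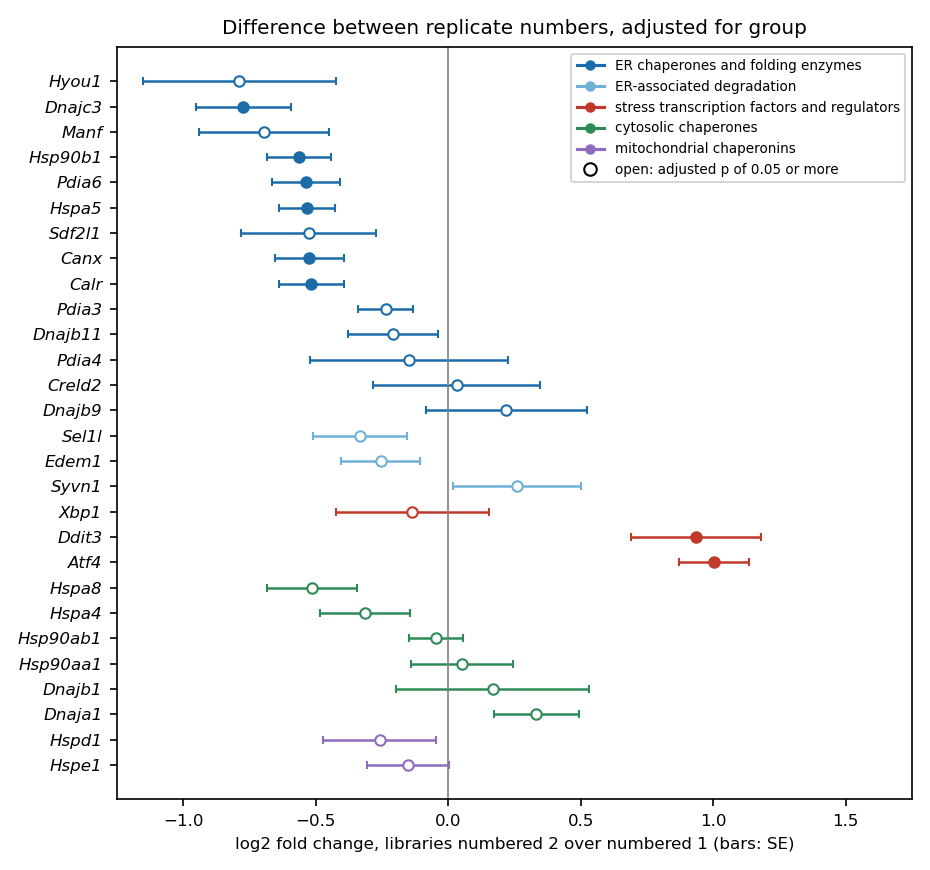
Log2 fold change of the 28 tested genes in libraries numbered 2 over libraries numbered 1, adjusted for group, with SE bars, ordered by role and size; filled points have an adjusted p under 0.05. Filled ER points lie between -0.77 (Dnajc3) and -0.52 (Calr, Canx), and the filled regulators at 0.94 (Ddit3) and 1.003 (Atf4).

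Hspa5 (BiP; chr2:34771970-34777547) had 1062, 1091, 1162 and 877 CPM in the libraries numbered 2 of Ly6Clo with IL-21, Ly6Clo without, Ly6Chi with and Ly6Chi without. The libraries numbered 1 had 1403, 1507, 1547 and 1599 CPM in the same order of groups. Every library numbered 2 lay below every library numbered 1, with means of 1048 ± 121 and 1514 ± 83.1 CPM (SD over 4 libraries each, across groups). The log2 fold change was -0.53 (SE 0.11, adjusted p = 0.00139), or 1.45-fold lower.

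Hsp90b1 (GRP94, the ER HSP90; chr10:86690209-86705509) had 372, 386, 397 and 458 CPM in libraries numbered 2, against 552, 598, 663 and 569.9 CPM in those numbered 1, groups in the same order. The values did not overlap, and the log2 fold change was -0.56 (SE 0.12, adjusted p = 0.0029).

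The lectin chaperones of the calnexin cycle moved alike. Calr (chr8:84841850-84846934) had 537, 474, 442 and 446 CPM in libraries numbered 2, against 608, 648, 776 and 713 CPM in those numbered 1. Canx (chr11:50293961-50325673) had 328, 296, 268 and 317 CPM in libraries numbered 2, against 444, 515, 373 and 402 CPM in those numbered 1. In both genes all 4 libraries numbered 2 lay below all 4 numbered 1, with log2 fold changes of -0.52 (SE 0.12, adjusted p = 0.00672) for Calr and -0.52 (SE 0.13, adjusted p = 0.0111) for Canx. The annotation lists a pseudogene named for Calr, with which its counts could be shared.

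Pdia6 (chr12:17266545-17284770) had 429, 367, 531 and 362 CPM in libraries numbered 2, against 584, 652, 576 and 607 CPM in those numbered 1, a log2 fold change of -0.54 (SE 0.13, adjusted p = 0.0073). Dnajc3 (chr14:118937976-118981697), a BiP co-chaperone that also inhibits PERK, had 108, 145, 84.4 and 91.5 CPM in libraries numbered 2, against 164, 220.1, 177 and 184 CPM in those numbered 1. Neither gene's values overlapped, and Dnajc3 had the lowest log2 fold change of the called genes, at -0.77 (SE 0.18, adjusted p = 0.00551).

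The other 8 ER chaperones and folding enzymes were not called. In Manf, an ER stress-induced secreted factor, libraries numbered 2 had 34.8 to 69.0 CPM and those numbered 1 had 73.8 to 99.7 CPM, without overlap (log2 fold change -0.69, SE 0.24, adjusted p = 0.0799). Hyou1 (-0.79, SE 0.36, adjusted p = 0.195) and Sdf2l1, a BiP cofactor (-0.53, SE 0.26, adjusted p = 0.226), also had groups that did not overlap. Pdia3 stood at -0.24 (SE 0.10, adjusted p = 0.176), Dnajb11, a BiP co-chaperone, at -0.21 and Pdia4 at -0.15. The only values above 0 were those of Dnajb9, a co-chaperone that restrains IRE1 (0.22, SE 0.30), and Creld2, a disulfide isomerase-like ER stress gene (0.03, SE 0.31).

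Groups that did not overlap were seen in 12 of the 28 genes. In 11 all libraries numbered 2 were lower (5.23% of all genes tested) and in 1, Atf4, all were higher (5.84% of all genes tested). The 11 were 9 of the 14 ER chaperones and folding enzymes and 2 degradation genes, and none was a cytosolic or mitochondrial chaperone.

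Atf4 (chr15:80255184-80257541), the transcription factor translated when eIF2alpha is phosphorylated, ran the other way. It had 719.6, 718, 665 and 568 CPM in libraries numbered 2, against 259.8, 357, 361 and 361 CPM in those numbered 1. All 4 libraries numbered 2 lay above all 4 numbered 1, with means of 668 ± 70.9 and 335 ± 50.0 CPM (SD, n = 4 libraries each). The log2 fold change was 1.003 (SE 0.13, adjusted p = 7.38e-06), or 2.00-fold higher.

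Ddit3 (chr10:127290774-127296288), encoding CHOP, an ATF4 target linked to apoptosis under ER stress, had 143, 143, 59.6 and 149 CPM in libraries numbered 2, against 71.95, 49.8, 71.5 and 65.6 CPM in those numbered 1. The Ly6Chi library with IL-21 numbered 2 lay within the range of those numbered 1, so the groups overlapped (log2 fold change 0.94, SE 0.24, adjusted p = 0.0155). Xbp1, whose spliced form drives ER chaperone genes, had -0.14 (SE 0.29, adjusted p = 0.838); a 3' count does not separate spliced from unspliced Xbp1.

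**Figure D3:**
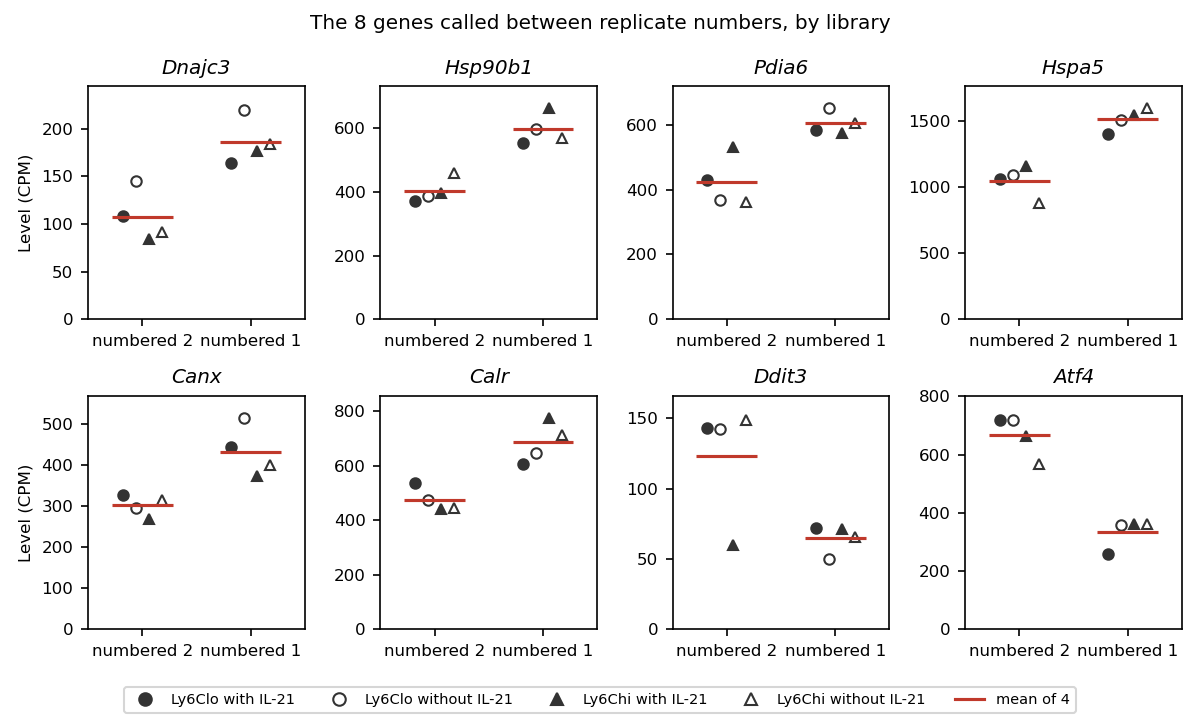
CPM of the 8 genes called between replicate numbers in each library, with libraries numbered 2 on the left and numbered 1 on the right of each panel, symbols for the 4 groups and a bar at the mean of 4. In Hspa5, Hsp90b1, Calr, Canx, Pdia6 and Dnajc3 every library numbered 2 lies below every library numbered 1, in Atf4 every one lies above, and in Ddit3 a single library numbered 2 (59.6 CPM) lies low.

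Degradation genes, cytosolic and mitochondrial chaperones showed no call. Sel1l, an adaptor of the ER ubiquitin ligase, had -0.33 (SE 0.18), Edem1, a mannosidase-like ER factor, -0.26 (SE 0.15), and the ligase Syvn1 0.26 (SE 0.24). Hspa8 came nearest to a call outside the ER (log2 fold change -0.51, SE 0.17, adjusted p = 0.0575). Its libraries numbered 2 had 123, 105, 139 and 168 CPM, and those numbered 1 had 172, 145, 218 and 234 CPM, so the groups overlapped. Hspa4, an HSP110 family exchange factor, had -0.32, the HSP40 genes Dnaja1 and Dnajb1 0.33 and 0.17, Hsp90aa1 0.05 and Hsp90ab1 -0.05. For Hsp90ab1 the 95% interval ran from -0.26 to 0.16. Hspd1 and Hspe1, the mitochondrial HSP60 and HSP10, had -0.26 (interval -0.70 to 0.18) and -0.15 (interval -0.47 to 0.17).

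Ratios within a library do not depend on the scaling between libraries. Their genes were chosen from the calls above, so the ratios describe the same values and add no separate evidence. Atf4 per Hspa5 was 0.571 to 0.678 in libraries numbered 2, against 0.185 to 0.237 in those numbered 1. The sum of the 6 called ER genes per Hsp90ab1 was 2.37 to 3.06 in libraries numbered 2, against 3.44 to 4.28 in those numbered 1. Between the cytosolic HSP90 genes, Hsp90ab1 per Hsp90aa1 was 6.31 to 10.4 in libraries numbered 2, against 6.66 to 10.6 in those numbered 1. The ranges of the first and second ratio did not overlap, and those of the third did.

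Summed over the role, ER chaperones and folding enzymes held 3795 to 4354 CPM in libraries numbered 2, against 5376 to 5813 CPM in those numbered 1. Regulators held 760 to 932 CPM in libraries numbered 2, against 368 to 505 CPM in those numbered 1, most of it Atf4. Degradation genes held 372 to 441 CPM in libraries numbered 2 and in those numbered 1 held 459 to 500.2 CPM. Cytosolic chaperones held 1582 to 1931 CPM in libraries numbered 2, against 1591 to 2039 CPM in those numbered 1, and mitochondrial chaperonins 253 to 415 and 309 to 432 CPM. The sums of ER chaperones, regulators and degradation genes did not overlap between the numbers, and those of cytosolic and mitochondrial chaperones did. The sums add up values described above and are no separate evidence, and 0 of the 3 tested degradation genes were called.

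**Figure D4:**
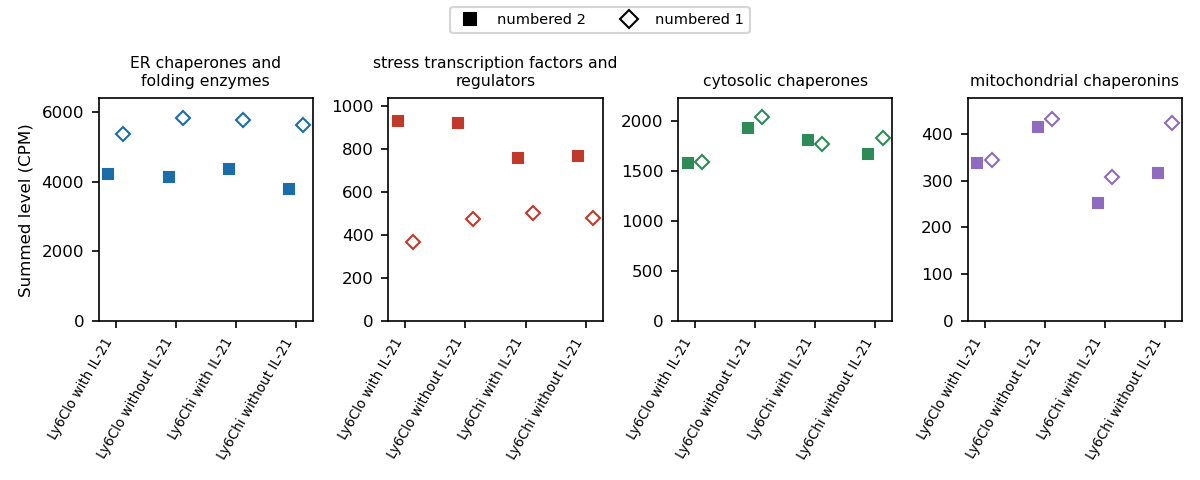
Summed CPM of 4 roles in each group, filled squares for libraries numbered 2 and open diamonds for libraries numbered 1, each axis starting at 0. The ER sums of libraries numbered 2 (3795 to 4354 CPM) lie below and the regulator sums (760 to 932 CPM) above those numbered 1 in all 4 groups.

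Set beside the promoters shown above, the 6 ER genes called lower all held an ERSE match. The other 2 holders, Creld2 (0.03, SE 0.31) and Syvn1 (0.26, SE 0.24), were not called. They held 96.8 and 159 counts over the 8 libraries, and the SE of Creld2 was large beside its value. Sdf2l1 and Manf held 135.5 and 161 counts. Among all 37 genes with a match 9 were tested in these libraries, the 8 named here and Hnrnpa3, an RNA-binding protein gene, which was lower in libraries numbered 2 as well (-0.50, SE 0.14, adjusted p = 0.0258). Sdf2l1 (-0.53), which did not pass the test but whose groups did not overlap either, had a window with no ERSE match, and Manf and Hyou1 had no window to search. Pdia3, Pdia4, Dnajb9 and Dnajb11 had windows with no ERSE match and were not called. No match to the exact letters does not show that a gene lacks the element. The motif was chosen with earlier results known, and whether the element bears on these differences was not tested.

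Other genes of these pathways, from lists chosen by function, extended the ER and ATF4 patterns in part. Of 20 tested genes of the ER translocon, signal peptidase and oligosaccharyltransferase, 4 were lower and 0 higher in libraries numbered 2: Rpn1 (-0.79, SE 0.15, adjusted p = 0.000553), Sec63 (-0.69), Ssr1 (-0.65) and Ssr3 (-0.44), with a list median of -0.20. Rpn1, an oligosaccharyltransferase subunit, had 156 to 242 CPM in libraries numbered 2, against 286 to 428 CPM in those numbered 1. Of 14 other ER folding enzymes 0 were called, with 10 below 0 and a median of -0.34. Of 23 listed ATF4 and integrated stress response targets only 8 passed the filter on low counts and were tested. Among these 8, 2 were higher, the amino acid transporter subunit Slc3a2 (0.56, SE 0.12, adjusted p = 0.00278) and the autophagy receptor Sqstm1 (0.53, SE 0.14, adjusted p = 0.0153). All 8 lay above 0, the lowest barely so at 0.0027, with a median of 0.38. Slc3a2 had 619 to 739.8 CPM in libraries numbered 2, against 391.7 to 558 CPM in those numbered 1.

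No gene was called among 16 other degradation genes (median -0.06), 8 sensors and proteases of the unfolded protein response (0.07), 12 HSP70 and HSP90 co-chaperones (-0.22), 13 chaperonin and prefoldin subunits (0.0081) and 6 other mitochondrial chaperones and proteases (0.17). Among 12 immediate early genes, which cells induce quickly on stimulation, 3 were higher (Ier5 0.83, Klf6 0.70 and Dusp1 0.88) and Egr2 was lower (-2.24).

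Markers moved with the replicate number too. Of 10 tested macrophage markers, Lyz2 (-0.86) and Csf1r (-0.67) were lower and Fcgr1 (0.65) higher, and the list summed to 9730 to 9999 CPM in libraries numbered 2, against 10464 to 14517 CPM in those numbered 1. The 6 endothelial markers, of which Tie1 and Tek were at 0 throughout, summed to 192 to 338 CPM in libraries numbered 2, against 66.4 to 139 CPM in those numbered 1, with Kdr higher (1.34). Mrc1 (-1.23) and Apoe (-0.37) of 7 tested resident or Ly6Clo macrophage markers were lower, with 4 of the 7 below 0 and a median of -0.05. Plac8 (1.85) of 6 tested monocyte markers was higher, against its list. The other 5 lay below 0, and the list median was -0.35. Of 9 neutrophil markers 2 were tested: Mmp8 (-0.74) was lower and S100a8 (0.12, SE 0.27) was not called, while Retnlg, Ly6g and Ngp were at 0. The 9 summed to 641 to 1693 CPM in libraries numbered 2, against 1239 to 2338 CPM in those numbered 1. The part of these markers, and of the immediate early genes, in the ER and Atf4 differences was not tested. In such bulk libraries fewer cells of a type and less RNA per cell cannot be told apart, and the labels leave animals, sort, culture and library preparation behind a number that cannot be told apart either.

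The Ly6Chi libraries, whose depths did not separate the numbers, gave 3 calls on their own (Atf4 0.75, SE 0.14, adjusted p = 0.0155; Calr; Hspa5), where 2.38% of all genes tested were called. The Ly6Clo libraries gave 7 (Atf4, Canx, Ddit3, Hsp90b1, Hspa4, Hspa5 and Pdia6), where 9.8% of all genes were called. The 4 libraries with IL-21 gave 2 (Atf4 and Hsp90b1; 4.74% of all genes) and the 4 without gave 3 (Atf4, Ddit3 and Pdia6; 1.51% of all genes). Atf4 was called in all 4 of these smaller fits. Leaving out either Ly6Clo library without IL-21 lowered the count to 4 (Atf4, Dnajc3, Hsp90b1 and Hspa5), with 3.11% of all genes called without the library numbered 2 and 2.98% without that numbered 1. Ddit3 kept its call only in the fits without a Ly6Chi library with IL-21. Leaving out a library leaves its partner alone in its group, fitted by its own mean, so the partner adds nothing to the number term. Both such fits of a group therefore nearly repeat each other and are not separate checks.

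IL-21 signals through STAT3 and other STAT proteins, and the study asks how it acts on each macrophage subset. None of the 28 genes was called for IL-21 in Ly6Clo macrophages (7 of 5256 genes, 0.133%), in Ly6Chi macrophages (1 gene, 0.019%), averaged over subsets (9 genes, 0.171%) or for the difference between the subsets (0 genes, 0%). DESeq2 and limma-voom called none of the 28 either, and at an unadjusted p under 0.05 edgeR had 1, 1, 2 and 0 of them. Over all genes the difference between subsets had 92 genes at an unadjusted p under 0.05. A fit blocked by replicate number called 29 genes in Ly6Clo, 14 in Ly6Chi, 60 averaged and 1 for the difference, again with none of the 28 genes.

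Averaged over subsets, the lowest unadjusted p values belonged to Hsp90aa1 and Hspd1, with log2 fold changes below 0. Hsp90aa1, the stress-inducible cytosolic HSP90, had 108 and 88.7 CPM in Ly6Clo with IL-21, against 141 and 184 CPM in Ly6Clo without. In Ly6Chi macrophages it had 97.9 and 109 CPM with IL-21, against 143 and 129.7 CPM without. All 4 libraries with IL-21 lay below all 4 without, a pattern seen in this gene alone of the 28 (1.52% of all genes tested), while none of the 28 had all 4 above (2.19%). The averaged log2 fold change was -0.58 (SE 0.21, unadjusted p = 0.0136, adjusted p = 0.767), and it was -0.76 (SE 0.28) in Ly6Clo and -0.40 (SE 0.31) in Ly6Chi. It did not pass the test over all genes, with or without the block (adjusted p = 0.188 with it).

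Hspd1, the mitochondrial HSP60, had 79.9 and 101.04 CPM in Ly6Clo with IL-21, against 162 and 92.2 CPM in Ly6Clo without. It had 82.8 and 84.4 CPM in Ly6Chi with IL-21, against 164 and 129.7 CPM in Ly6Chi without. The values overlapped in Ly6Clo and not in Ly6Chi, with log2 fold changes of -0.42 (SE 0.33) and -0.81 (SE 0.35, adjusted p = 0.99997), and -0.61 averaged (SE 0.24, unadjusted p = 0.0234, adjusted p = 0.809). The annotation lists pseudogenes named for Hspd1 and Hspe1, with which their counts could be shared.

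Hsp90ab1 had 899 and 927 CPM in Ly6Clo with IL-21, against 1204 and 1163 CPM without, and 1035 and 1003 CPM in Ly6Chi with IL-21, against 955 and 869.5 CPM without. It lay lower with IL-21 in both Ly6Clo pairs and higher in both Ly6Chi pairs. The difference between the effects was -0.53 (SE 0.28, unadjusted p = 0.0800, adjusted p = 0.99998), with a 95% interval of -1.14 to 0.07. The fit blocked by replicate number gave the same -0.53 with a smaller SE of 0.20 (unadjusted p = 0.0152, adjusted p = 0.9998). The next genes in that test were Hspa4 (-0.45, SE 0.41) and Pdia3 (-0.33, SE 0.31). Hspa4 had 216 and 148 CPM in Ly6Clo with IL-21, against 286.5 and 180.0 CPM without, and 188 and 194 CPM in Ly6Chi with IL-21, against 172 and 183 CPM without. Pdia3 had 1035 and 917 CPM in Ly6Clo with IL-21, against 1154 and 985 CPM without, and 1145 and 1038 CPM in Ly6Chi with IL-21, against 1082 and 816 CPM without. None of these 3 passed.

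In the ER no gene stood out. Dnajb11 had 239.8 and 197 CPM in Ly6Clo with IL-21, against 203 and 125 CPM without, and 196 and 209 CPM in Ly6Chi with IL-21, against 164 and 179 CPM without (averaged log2 fold change 0.34, SE 0.20, adjusted p = 0.99966). For Hspa5 the averaged effect was 0.03, with a 95% interval of -0.41 to 0.47, and for Hsp90b1 it was -0.02, with an interval of -0.47 to 0.44. Atf4, whose values followed the number, had a wide interval of -1.01 to 1.01 around 0.00. These intervals come from the fit without the number; in the blocked fit the SE was 0.11 for Hspa5 (0.05), 0.12 for Hsp90b1 (-0.03) and 0.13 for Atf4 (-0.01). Ddit3 in Ly6Chi had 71.5 and 59.6 CPM with IL-21, against 65.6 and 149 CPM without (-0.70, SE 0.57), and its value was 0.0104 when the untreated library at 149 CPM was left out.

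Libraries with and without IL-21 did not overlap in Ly6Clo in 2 genes all higher (15% of all genes) and 3 all lower (14.5%), and in Ly6Chi in 3 all higher (15.9%) and 3 all lower (15.6%). With 28 genes tested these shares lay below those over all genes. Of the other pathway lists none had a called gene in any of the IL-21 comparisons. The 2 tested fibroblast markers, Col1a2 and Col3a1, had log2 fold changes with IL-21 of 2.03 and 2.02 in Ly6Clo. In Ly6Chi these were -1.56 and -1.81, and none was called. The fibroblast list summed to 15.1 to 160 CPM per library, and its part in the IL-21 comparisons was not tested.

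**Figure D5:**
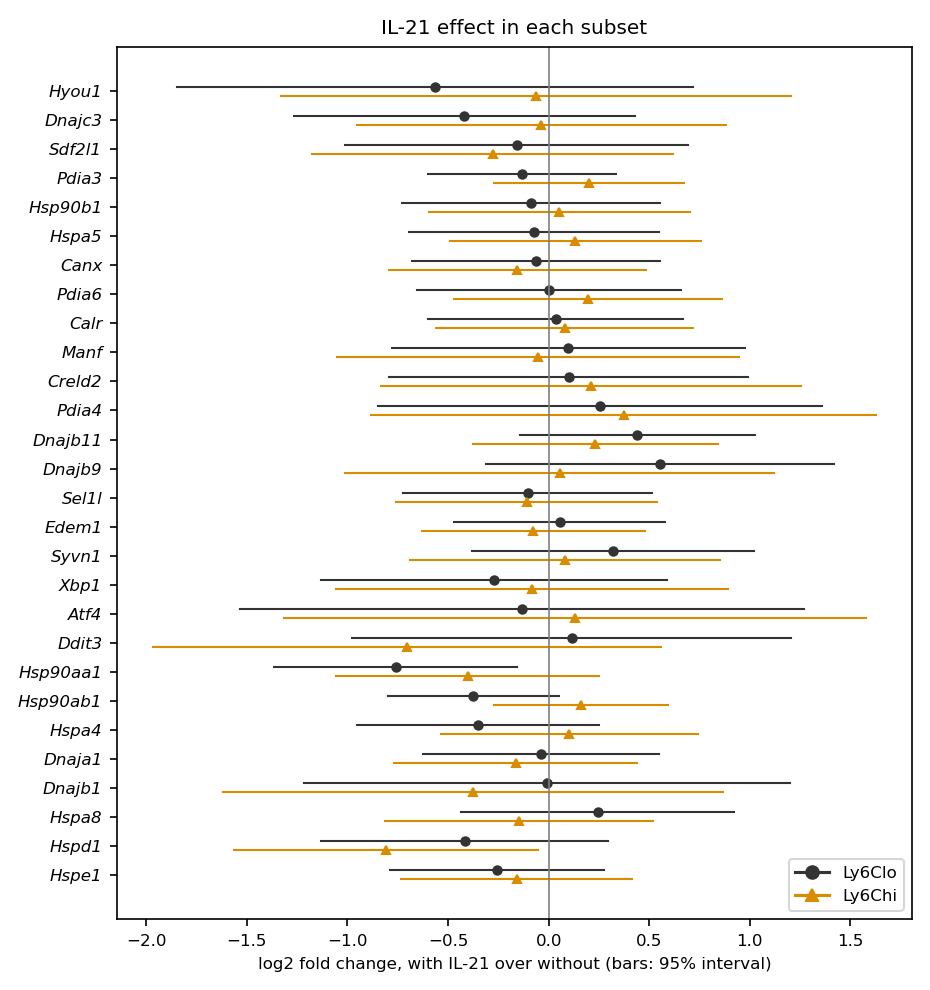
Log2 fold change with IL-21 over without for the 28 tested genes in Ly6Clo (circles) and Ly6Chi (triangles), with 95% intervals, ordered by role and by the Ly6Clo value. All intervals include 0 except those of Hsp90aa1 in Ly6Clo (-1.37 to -0.16) and Hspd1 in Ly6Chi (-1.56 to -0.05), and no gene was called.

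Between Ly6Clo and Ly6Chi macrophages no difference in the 28 genes passed the test. None was called without IL-21 (2 of 5256 genes, 0.0381%), with IL-21 (1 gene, 0.019%) or averaged over stimulation (10 genes, 0.19%); edgeR had 1, 0 and 1 of the 28 at an unadjusted p under 0.05, and DESeq2 and limma-voom called none. The fit blocked by replicate number called 31, 41 and 132 of all genes, and none of the 28. Summed neutrophil markers were 641 to 1262 CPM in Ly6Clo libraries and 1400 to 2338 CPM in Ly6Chi libraries, without overlap. Their part in the subset comparisons was not tested.

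Hspa8, the constitutive cytosolic HSP70, came first. It had 145 and 105 CPM in Ly6Clo without IL-21, against 234 and 168 CPM in Ly6Chi without, and 172 and 123 CPM in Ly6Clo with IL-21, against 218 and 139 CPM in Ly6Chi with. The values did not overlap without IL-21 (log2 fold change -0.71, SE 0.31, adjusted p = 0.995) and did with it, and the averaged value was -0.51 (SE 0.22, unadjusted p = 0.0367, adjusted p = 0.564).

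Hspe1, which encodes the HSP10 lid of the mitochondrial chaperonin, had 269.9 and 323 CPM in Ly6Clo without IL-21, against 258 and 187 CPM in Ly6Chi without. It had 264 and 237 CPM in Ly6Clo with IL-21, against 226 and 169 CPM in Ly6Chi with. Both Ly6Clo libraries lay above both Ly6Chi libraries at either stimulation, and the averaged value, 0.37 (SE 0.18, unadjusted p = 0.0582, adjusted p = 0.637), did not pass. Dnajb9 had 41.5 and 43.9 CPM in Ly6Clo without IL-21, against 24.6 and 49.6 CPM in Ly6Chi without, and 71.95 and 56.7 CPM in Ly6Clo with IL-21, against 30.1 and 49.6 CPM in Ly6Chi with. Its averaged value was 0.45 (SE 0.32, adjusted p = 0.782).

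Among the abundant ER genes the averaged subset differences lay near 0, with intervals on both sides of it: -0.04 for Hspa5 (interval -0.48 to 0.40), -0.14 for Hsp90b1 (-0.60 to 0.31), 0.00 for Pdia3 (-0.33 to 0.34) and -0.08 for Calr (-0.53 to 0.37). Without IL-21, 4 of the 28 genes were higher and 3 lower in both Ly6Clo libraries than in both Ly6Chi libraries (16.9% and 17% of all genes). With IL-21 the counts were 3 and 2 (16.2% and 16.7% of all genes). Over both stimulations no gene of the 28 had all 4 Ly6Clo libraries above or all 4 below the Ly6Chi libraries (2.64% and 2.74% of all genes). No gene of the other pathway lists was called between the subsets.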

How the data were processed

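The deposited values are estimated counts per Ensembl gene that can carry fractions, raw per the file headers. Not whole, at a tolerance of 0.001, were 53.3 to 59.7% of the nonzero values of a library. A QuantSeq 3' FWD kit with a module for molecular identifiers had been used, with single reads of 75 bases, per the labels' protocols. Build mm10 and DESeq2 (no version) are named per the submitters' processing notes. Which aligner, counter and gene annotation were used, and whether identifiers and strand were, is not given in the sources used here. Reads of near-identical or overlapping genes could therefore be divided between them, and limits from counts cover counting error only.

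Since the design had assumed whole counts, values were first rounded. Symbols came from GENCODE M21 (GRCm38), which held 53237 of the 53342 identifiers. The edgeR 4.0.16 package (with limma 3.58.1 under R 4.3.3) filtered genes with filterByExpr at a minimum count of 10 and a minimum total of 15, scaled libraries by TMM and fitted a single model of 4 group means. Its robust quasi-likelihood F test had 4 residual and a median of 10.6 prior degrees of freedom, at a common biological coefficient of variation of 0.201. For the replicate numbers the same model had the number as a term. Every p and adjusted p in the text comes from edgeR fits across all genes kept, with Benjamini-Hochberg adjustment. The adjustment ran over 5256 genes in fits of all 8 libraries with this filter. In fits to part of the libraries the filter was rerun, and the adjustment covered the genes kept there. The word "called" means an adjusted p below 0.05. CPM use TMM-scaled totals of the genes kept.

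Same-numbered libraries deviated together: across 5256 genes the difference between number 2 and number 1 correlated at 0.205 to 0.383 between each pair of groups, so the number was also used as a block in an alternative fit. Other alternatives were DESeq2 1.42.0, limma-voom, DESeq2-type size factors (RLE), 2 other filters, unrounded values, parts of the libraries and each library left out. The model was also run on simulated counts with known changes. These had the same dispersion for all genes. Those simulating an IL-21 effect had no deviation by replicate number, unlike the libraries here.

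The 33 genes, the lists of other genes and the promoter motifs were chosen with earlier results of these data known. By the naming rule, values in every library are given for genes called in any comparison and for the 3 of smallest p in each; other pathway genes are named where called. Hnrnpa3 falls outside that rule. Samples from il21r-/- mice were not analysed here.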

Additional observations from a re-analysis of the deposited data

Results flagged for a closer look

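In 56 sets of 4 libraries, 28 genes in each replicate number, the library farthest from the others was compared with the spread of the set. Chance alone sets apart about 1 library in 20 sets, and 2 were found here. Atf4 in the Ly6Clo library with IL-21 numbered 1 was low at 259.81 CPM, against 357 to 361 CPM in the other 3 libraries numbered 1. Its gap to the nearest took 0.957 of the whole range. Ddit3 in the Ly6Chi library with IL-21 numbered 2 was low at 59.58 CPM, against 143 to 149 CPM in the other 3 numbered 2, with 0.932 of the range in the gap.

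Hsp90ab1 was set apart because its IL-21 values ran in opposite directions, lower in both Ly6Clo pairs and higher in both Ly6Chi pairs. Of all genes tested, 14.5% were all lower in Ly6Clo and 15.9% all higher in Ly6Chi. The share of all genes with opposite directions was not counted. The tested difference of the effects was -0.53 (SE 0.28, edgeR adjusted p = 0.99998). The same value is the change of the Ly6Clo over Ly6Chi difference with IL-21 against that without, -0.53, and it did not pass the test.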

How the results depend on the processing

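Of the 28 genes, 8 were called between replicate numbers. DESeq2 called 3 of them (Atf4, Hsp90b1 and Hspa5; 131 of all genes, against 431), the Ly6Chi libraries alone 3, the libraries with IL-21 alone 2 and those without IL-21 alone 3; the part fits hold fewer samples. Leaving out a library gave 4 to 8. The same 8 were called with limma-voom, RLE scaling, no low-count filter and unrounded values, and a stricter filter (a mean of 20 counts) added Hspa8. Apart from those fits, Atf4 was called in 10 of 10 alternatives and Hspa5 and Hsp90b1 in 8 of 10. Pdia6 and Ddit3 were called in 7 of 10, Calr and Canx in 6 of 10 and Dnajc3 in 5 of 10. With the replicate number as a pairing block, 0 of the 28 genes were called in each of the 7 IL-21 and subset comparisons, and the other alternatives gave 0 there too. The log2 fold change of Ddit3 for IL-21 in Ly6Chi ranged from -1.15 to 0.0104 over fits that left out a library and turned above 0 without the Ly6Chi library without IL-21 numbered 2. The 95% interval of the averaged IL-21 effect ran from -0.41 to 0.47 for Hspa5, the most abundant gene, without the block, and the block lowered its SE to 0.11. At 224329 to 483593 counts per library, 3 counts were worth 6.58 to 14.9 CPM, which limits the genes with few counts.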
